A study of Mus musculus with 12 samples.

Results

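The genes described here are 33 members of the p53 pathway, out of 26305 genes in the deposited table: Trp53 itself, its feedback partners, and genes that p53 is known to activate. They were taken from the table by name and grouped by role into core and feedback genes (4), apoptosis genes (12), repair genes (5), stress and growth genes (9) and microtubule and mitosis genes (3). All 33 were found in the table and all 33 passed the filter on low counts.

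RNA sequencing was done on mouse embryonic fibroblasts, primary connective tissue cells grown out of wild-type E13.5 embryos (mid-gestation). Every group shared the C57BL/6 strain, male sex, DMEM with 10% serum, 3% oxygen and 5% carbon dioxide, so no group differed in p53 genotype and none received a DNA-damaging agent named in the labels. The 4 groups were DMSO, the vehicle, for 96 h; DMSO for 240 h; 10 µM WM-2474, named an inactive control in the labels, for 96 h; and 10 µM WM-2474 for 240 h. Each group had 3 biological replicates, and the labels do not say whether a replicate was an embryo or a separate culture of pooled cells. Time in culture and time under treatment rose together, so they cannot be told apart.

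The p53 protein is a transcription factor that is held at a low level by Mdm2, a ubiquitin ligase, with the help of the related protein Mdm4. Mdm2 is itself a p53 target, which closes a feedback loop, and the protein rather than the mRNA of p53 is the main point of control. Its targets arrest the cell cycle, trigger cell death, repair DNA or adjust metabolism, and in cultured embryonic fibroblasts the pathway is known for its part in the arrest that comes with prolonged growth outside the body.

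Library totals ran from 7313007 to 26019167 counts, and a floor of 3 counts corresponded to 0.115 to 0.410 CPM, counts scaled to library size. Member counts in a library ran from 25 to 17852. The 10 fibroblast markers summed to 31395 to 37316 CPM at 96 h and to 48124 to 52723 CPM at 240 h; their part in the time changes was not tested. Neural markers, mostly Tubb3, summed to at most 81.4 CPM and muscle markers, mostly Des, to at most 29.5 CPM. Marker sums for epithelium, endothelium, red cells and white cells other than the B lineage stayed at 13 CPM or less, but some moved with time. From 96 h to 240 h in DMSO the mean sums went from 12.3 to 8.71 CPM for white cells, from 6.50 to 4.12 CPM for endothelium and from 3.67 to 1.80 CPM for epithelium, and 2, 1 and 2 of their tested markers fell. Of 4 tested neural markers, 1 rose and 1 fell in DMSO, where 17.5% and 17.3% of all tested genes did so. Only the riser, Map2, had a log2 fold change above 0 (1.75, edgeR adjusted p = 8.00e-08), at 14.6 CPM or less. The median of the 4 was -0.45. The part of these markers in the members' changes was not tested. The 11 B-lineage markers other than Ebf1 summed to 16.7 and 22.7 CPM in replicates 1 and 2 of DMSO 240 h, against 0.939 to 4.86 CPM in the other 10 libraries, and the B-cell marker Ms4a1 was at 0 in all 12. The counts called over time in DMSO are therefore given with and without those 2 libraries.

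p53 binds DNA at pairs of a decamer made of purines, then C, 2 letters that are each A or T, then G, then pyrimidines. The RefSeq promoters of 25 members, on build GRCm38.p6 and from 250 bases before to 50 bases after each start, were searched for exact matches to all 10 positions of the decamer, which reads alike on both strands. Of these 25 genes, 11 had a match in a promoter (44.0%), against 9.55% of the 27025 genes in the promoter table. Counted over promoters, 12 of 37 held a match (32.4%), against 8.36% of 32851. Members are commonly listed as p53 targets because p53 binds near them, so this share is no independent result, and a match is a description of letters, not a site shown to be bound. Perp, Pmaip1, Tnfrsf10b, Trp53inp1, Xpc, Ddb2, Rrm2b and Zmat3 were not in the promoter table. The promoters of 3 members are shown whole, those of the members with a match and the smallest p over time in DMSO, read along the gene's strand with the decamer in capitals. They lie on the minus strand at chr10:117710709-117711008 (Mdm2), chr9:36797285-36797584 (Ei24) and chr11:40755237-40755536 (Ccng1).
Mdm2: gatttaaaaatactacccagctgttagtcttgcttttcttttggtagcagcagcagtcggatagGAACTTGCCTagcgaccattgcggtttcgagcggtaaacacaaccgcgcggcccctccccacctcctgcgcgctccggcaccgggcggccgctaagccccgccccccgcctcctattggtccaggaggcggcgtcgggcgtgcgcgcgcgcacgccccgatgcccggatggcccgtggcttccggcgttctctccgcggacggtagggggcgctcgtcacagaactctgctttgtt
Ei24: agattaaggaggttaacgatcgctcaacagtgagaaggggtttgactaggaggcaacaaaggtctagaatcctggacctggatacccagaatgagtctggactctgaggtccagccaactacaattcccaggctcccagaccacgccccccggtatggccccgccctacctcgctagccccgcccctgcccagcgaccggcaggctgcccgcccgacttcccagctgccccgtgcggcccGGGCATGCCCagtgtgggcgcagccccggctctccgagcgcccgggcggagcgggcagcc
Ccng1: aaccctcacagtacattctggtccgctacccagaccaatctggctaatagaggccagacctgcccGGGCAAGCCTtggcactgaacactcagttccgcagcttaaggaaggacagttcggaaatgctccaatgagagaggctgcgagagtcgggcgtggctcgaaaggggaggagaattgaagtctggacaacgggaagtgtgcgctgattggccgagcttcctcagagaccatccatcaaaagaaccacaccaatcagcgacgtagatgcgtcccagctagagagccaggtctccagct

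The decamer began 186 bases upstream of the start in Mdm2, 10 bases upstream in Ei24 and 185 bases upstream in Ccng1. In Ccng1 a second decamer with 1 mismatch lay directly before it, with 0 bases between them. Short windows of 30 bases show the match in 2 members that rose with time (Aen and Polk) and in the only 2 that fell in both treatments (Sesn1 and Ckap2), so that a match was found on both sides of the time change.
Aen: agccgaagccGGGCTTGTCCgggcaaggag
Polk: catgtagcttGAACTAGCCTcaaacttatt
Sesn1: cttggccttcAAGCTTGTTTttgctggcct
Ckap2: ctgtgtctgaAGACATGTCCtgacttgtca

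The other matches were in Trp53, Bax, Gtse1 and Ddit4l. Another definition allowed up to 2 mismatches but asked for a pair of decamers. With it 7 of 25 genes had a match (28.0%), against 11.5% of all genes in the table. Mdm2 and Ei24, whose promoters are shown whole, had no such pair.

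Levels between genes were compared as FPKM, which divides CPM by gene length. In DMSO at 96 h the members spanned from 227 ± 11.5 FPKM (SD, n = 3) for Bax, the pore-forming protein of the mitochondrial death pathway, to 2.15 ± 0.362 for Ddb2, a sensor of ultraviolet damage. Phlda3, an inhibitor of the survival kinase Akt, stood at 170 ± 14.8 FPKM and Ccng1, cyclin G1, at 160 ± 5.72, and these 2 differed by less than the larger SD. Trp53 stood at 64.1 ± 2.17 FPKM and Mdm2 at 48.4 ± 1.95, above 91.7% and 88.4% of tested genes, whose median was 9.38 FPKM. The death receptor Fas (4.19 ± 0.114) and Perp (3.93 ± 0.205) were among the 4 lowest members.

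**Figure D1:**
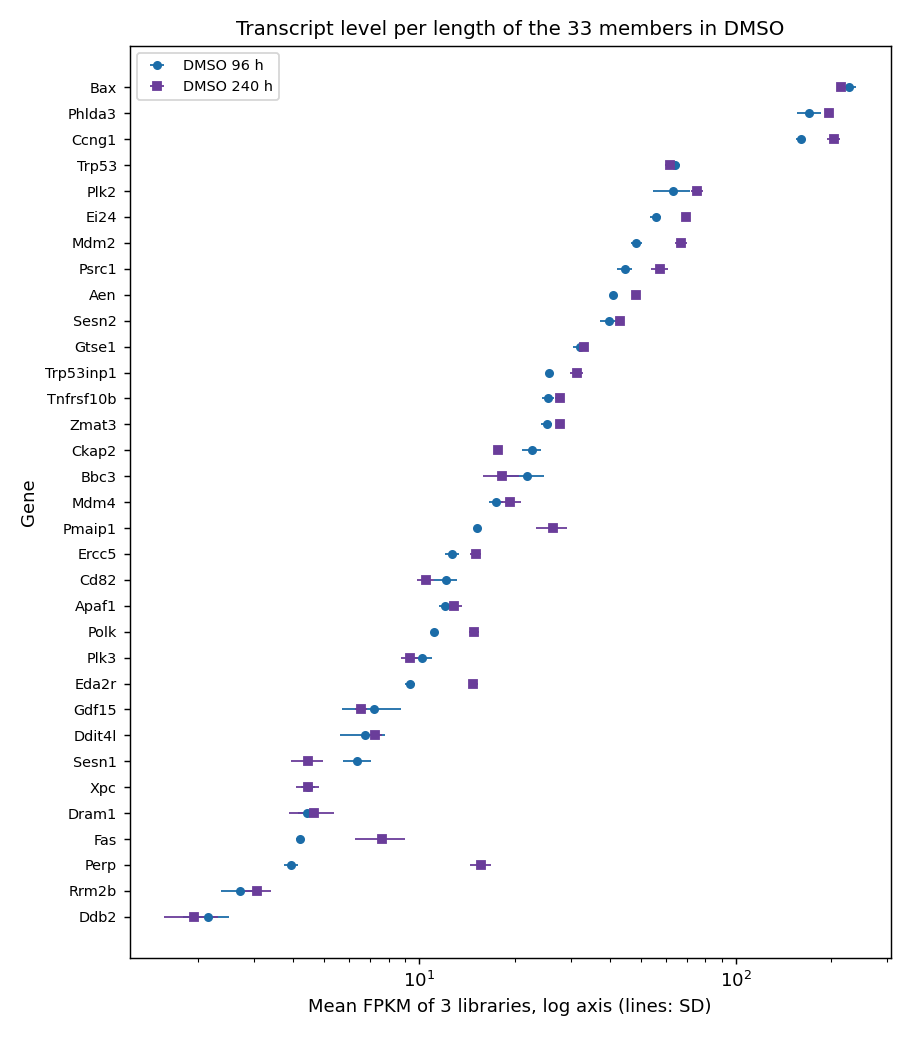
Mean FPKM of each member in DMSO at 96 h (circles) and 240 h (squares) on a log axis, with lines for the SD of 3 libraries. Members run from Bax at 227 FPKM to Ddb2 at 2.15 FPKM at 96 h, and Perp shows the widest gap between the times, from 3.93 to 15.6 FPKM.

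The change from 96 h to 240 h was taken within each treatment, with edgeR's quasi-likelihood test and Benjamini-Hochberg adjustment over 13499 genes. The 2 time comparisons share no library, but they come from the same model with a shared estimate of the spread. Same-numbered libraries of the 2 treatments also deviated together at 96 h, so calls shared by both comparisons are not independent. In DMSO, 14 of 33 members rose and 2 fell, where 17.5% of all tested genes rose and 17.3% fell. In WM-2474, 15 rose and 3 fell, where 15.9% of all tested genes rose and 14.8% fell. The members' median log2 fold change was 0.14 in DMSO and 0.13 in WM-2474, beside -0.01 and -0.00 over all tested genes. The rising members were mostly apoptosis genes, led by Perp, and Trp53 mRNA itself was not among those that passed.

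Both time comparisons called the same 14 members higher (Mdm2, Ccng1, Perp, Eda2r, Fas, Ei24, Pmaip1, Trp53inp1, Aen, Phlda3, Polk, Ercc5, Zmat3 and Psrc1) and the same 2 lower (Sesn1 and Ckap2). Those called in WM-2474 but not in DMSO were Sesn2, higher, and Plk3, lower. The sign of the log2 fold change was shared by 30 of 33 members. The shares of all tested genes with a shared sign or a shared call were not computed. These counts are therefore not shown to be particular to the members. In DMSO, 15 members had all 240 h libraries above all 96 h libraries and 3 had all below, where 22.9% and 22.8% of tested genes did so. In WM-2474 these were 15 and 2 members, where 21.1% and 21.2% of tested genes did so. Most called changes were small: against a fold of 1.2 rather than against 0, 6 members passed as higher and 1 as lower in DMSO, and 6 and 0 in WM-2474. Of all tested genes 5.33% and 6.08% passed that test in DMSO, and 5.19% and 5.42% in WM-2474.

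Scaling mattered for the balance of directions. Scaled by library totals instead of TMM factors, the median of all tested genes moved to a log2 fold change of -0.13 in DMSO and -0.14 in WM-2474. The members then counted 11 higher and 5 lower in DMSO, and 12 higher and 5 lower in WM-2474. With the same scaling 8.82% of all tested genes were higher and 32.5% lower in DMSO, and 8.13% and 32.5% in WM-2474. The 11 and 12 higher members were all among those called higher with TMM factors.

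**Figure D2:**
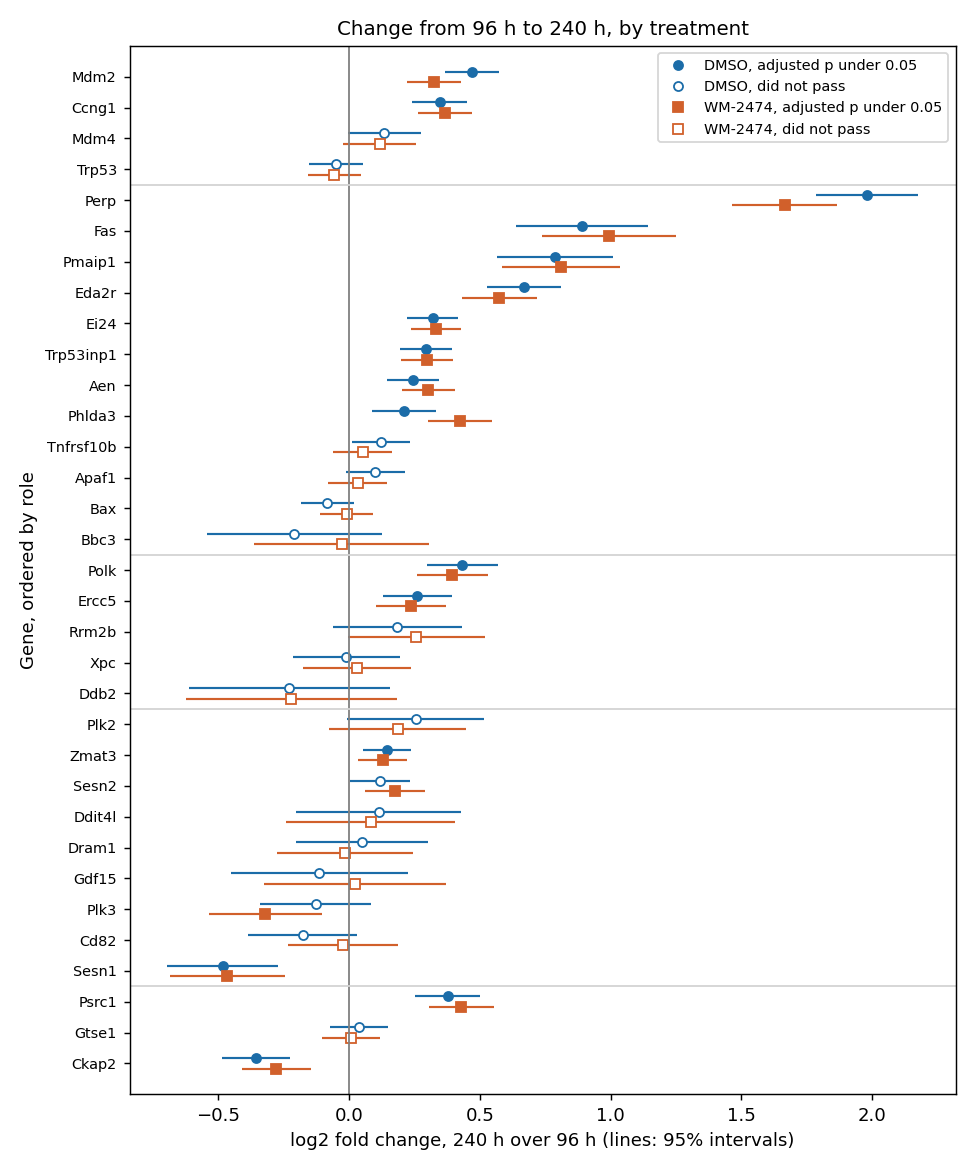
Log2 fold change from 96 h to 240 h for each member, ordered by role, in DMSO (circles) and in WM-2474 (squares), with lines for 95% intervals and filled symbols where the edgeR adjusted p was under 0.05. Perp lies farthest to the right at 1.98 in DMSO and 1.67 in WM-2474, while Sesn1 and Ckap2 lie to the left of 0 in both.

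Among the core and feedback genes, Mdm2 and Ccng1 rose and Trp53 and Mdm4 did not pass. Trp53 was measured at 115, 123 and 121 CPM in DMSO at 96 h and at 121, 113 and 114 CPM at 240 h. In WM-2474 it was measured at 124, 123 and 115 CPM and then at 115, 118 and 115 CPM. The groups overlapped throughout, and the log2 fold change over time was -0.05 ± 0.05 (SE) in DMSO and -0.06 ± 0.05 in WM-2474, with edgeR adjusted p = 0.469 and 0.431. The 95% interval in DMSO ran from -0.15 to 0.05.

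Mdm2 was measured at 152, 147 and 140 CPM in DMSO at 96 h and at 193, 209 and 205 CPM at 240 h. In WM-2474 the libraries held 153, 143 and 149 CPM and then 180, 195 and 180 CPM. Each 240 h library lay above each 96 h library of its treatment. The rise was 0.47 ± 0.05 on the log2 scale in DMSO (1.38-fold, edgeR adjusted p = 3.97e-08) and 0.32 ± 0.05 in WM-2474 (adjusted p = 1.43e-05).

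Ccng1, whose product is a partner of the phosphatase that acts on Mdm2, showed a rise of like size in both treatments. It was measured at 580, 548 and 544 CPM and then 671, 739 and 716 CPM in DMSO, and at 561, 542 and 531 CPM and then 645, 712 and 750 CPM in WM-2474. Early and late libraries did not overlap, and the rise was 0.35 ± 0.05 and 0.37 ± 0.05 on the log2 scale (adjusted p = 6.81e-06 and 3.19e-06). Mdm4, which blocks p53 without degrading it, was measured at 64.6, 59.1 and 59.0 CPM and then 73.8, 61.9 and 65.9 CPM in DMSO. In WM-2474 it was at 63.4, 56.7 and 58.2 CPM and then 63.6, 68.6 and 60.8 CPM. Its groups overlapped in both treatments, and its log2 fold changes of 0.14 and 0.12 did not pass (edgeR adjusted p = 0.123 and 0.204). Of the distinct 31-base words in their transcripts, Mdm4 shares 13.1% and Trp53 8.79% with a pseudogene of its own name, so their counts are uncertain to that extent.

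Among the 12 apoptosis genes, 8 rose in DMSO and the same 8 in WM-2474, and 0 fell. Of all tested genes 17.5% rose and 17.3% fell in DMSO, and 15.9% and 14.8% in WM-2474. The median log2 fold change of the 12 was 0.27 in DMSO and 0.32 in WM-2474. Perp, a tetraspan membrane protein of cell contacts that is also required for some forms of p53-dependent death, changed most of all members. It was measured at 7.67, 7.73 and 7.03 CPM in DMSO at 96 h and at 28.2, 32.3 and 28.6 CPM at 240 h. In WM-2474 it was at 8.11, 7.98 and 7.94 CPM and then at 26.1, 24.8 and 25.6 CPM. Late libraries were all well above early ones, a rise of 1.98 ± 0.09 on the log2 scale in DMSO (3.95-fold, edgeR adjusted p = 1.75e-14) and 1.67 ± 0.10 in WM-2474 (3.17-fold, adjusted p = 6.26e-13).

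A pair of receptors of the tumour necrosis factor family rose as well. Eda2r, the receptor for ectodysplasin A2, was measured at 54.5, 56.3 and 52.2 CPM and then 82.8, 86.9 and 88.6 CPM in DMSO, and at 57.0, 55.0 and 52.5 CPM and then 72.4, 80.2 and 93.2 CPM in WM-2474. Fas, the receptor for Fas ligand, was measured at 7.56, 7.73 and 7.32 CPM and then 10.9, 15.5 and 14.8 CPM in DMSO, and at 7.25, 8.32 and 7.17 CPM and then 15.4, 14.9 and 14.9 CPM in WM-2474. For both receptors the times did not overlap in either treatment. The rises were 0.67 ± 0.07 and 0.57 ± 0.07 on the log2 scale for Eda2r (edgeR adjusted p = 2.53e-08 and 3.87e-07) and 0.89 ± 0.12 and 0.99 ± 0.12 for Fas (adjusted p = 2.55e-06 and 6.01e-07). The third receptor of this family in the list, Tnfrsf10b, which binds the ligand TRAIL, had log2 fold changes of 0.12 and 0.05 that did not pass (adjusted p = 0.0848 and 0.514).

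The BH3-only proteins, which release the mitochondrial death pathway, were called differently. Pmaip1, known as Noxa, rose from 40.2 ± 0.261 CPM to 69.9 ± 7.95 CPM in DMSO (0.79 ± 0.10 on the log2 scale, edgeR adjusted p = 2.58e-05) and from 38.3 ± 2.86 to 66.6 ± 11.3 CPM in WM-2474 (0.81 ± 0.11, adjusted p = 2.34e-05). Bbc3, known as Puma, was at 43.1 ± 5.78 and 36.0 ± 4.58 CPM in DMSO, a log2 fold change of -0.21 ± 0.15 that did not pass (adjusted p = 0.324). Whether these 2 genes changed by different amounts was not tested. Bax and Apaf1, the scaffold of the caspase-activating apoptosome, did not pass either, with log2 fold changes of -0.08 and 0.10 in DMSO and -0.01 and 0.03 in WM-2474. Bax shares 9.89% of its 31-base words with an overlapping gene model on the same strand and is uncertain to that extent.

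The 4 other rising apoptosis genes rose by 0.21 to 0.32 on the log2 scale in DMSO and by 0.30 to 0.42 in WM-2474. Ei24, an endoplasmic reticulum protein, went from 127 ± 5.27 to 159 ± 2.41 CPM in DMSO, and Trp53inp1, a p53-binding stress protein, from 139 ± 3.60 to 170 ± 8.33 CPM. Of the exon bases of Ei24, 324 of 4868 overlap a gene model on the other strand. Aen, an apoptosis-linked nuclease, went from 105 ± 0.822 to 124 ± 3.43 CPM (edgeR adjusted p = 0.000327). Phlda3 went from 250 ± 21.7 to 288 ± 5.33 CPM in DMSO (0.21 ± 0.06, adjusted p = 0.00760) and from 237 ± 21 to 317 ± 1.59 CPM in WM-2474 (0.42 ± 0.06, adjusted p = 5.85e-06). Its call in DMSO was lost without DMSO 96 h replicate 1 (edgeR adjusted p = 0.054). Over all alternative settings its log2 fold change in DMSO went as low as 0.0887, below the lowest value of 0.137 with 1 library left out.

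Among the 5 repair genes, Polk and Ercc5 rose in both treatments and the other 3 did not pass. For comparison, 17.5% of all tested genes rose in DMSO and 15.9% in WM-2474. Polk, the polymerase that copies past damaged bases, was measured at 46.5, 47.6 and 46.3 CPM and then 63.6, 60.3 and 64.9 CPM in DMSO, and at 51.0, 44.8 and 47.1 CPM and then 57.2, 67.6 and 62.8 CPM in WM-2474. Ercc5, the nuclease that cuts on the 3′ side of a lesion in nucleotide excision repair, was measured at 48.0, 52.7 and 51.6 CPM and then 57.5, 61.5 and 62.2 CPM in DMSO. In WM-2474 Ercc5 was at 49.3, 50.8 and 55.0 CPM and then 64.7, 57.1 and 61.3 CPM. No early library of either gene reached a late one. Polk rose by 0.43 ± 0.07 and 0.39 ± 0.07 on the log2 scale (edgeR adjusted p = 1.13e-05 and 4.53e-05) and Ercc5 by 0.26 ± 0.06 and 0.24 ± 0.06 (adjusted p = 0.00253 and 0.00628). With library totals Ercc5 lost its call in both treatments (adjusted p = 0.0895 and 0.210).

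Rrm2b, the p53-induced subunit of ribonucleotide reductase, was measured at 13.9, 12.4 and 10.6 CPM and then 12, 14.7 and 14.7 CPM in DMSO, and at 12.2, 9.75 and 9.99 CPM and then 11.9, 13.6 and 12.7 CPM in WM-2474. Its times overlapped, and log2 fold changes of 0.18 ± 0.12 and 0.26 ± 0.13 did not pass. Rrm2b shares 4.79% of its 31-base words with a gene model elsewhere, and 734 of its 9134 exon bases overlap a gene model on the other strand. The lesion sensors of nucleotide excision repair did not pass either. Xpc was at 16.2 ± 0.836 and 16.1 ± 1.32 CPM in DMSO, and Ddb2 at 4.12 ± 0.694 and 3.71 ± 0.715 CPM. At the low counts of Ddb2 the 95% interval of its log2 fold change in DMSO was wide, from -0.61 to 0.16, and 652 of its 2736 exon bases overlap Acp2 on the other strand.

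The 9 stress and growth genes showed changes of both signs, with a median log2 fold change of 0.05 in DMSO and 0.02 in WM-2474. In DMSO 1 rose and 1 fell, where 17.5% of all tested genes rose and 17.3% fell. In WM-2474 2 rose and 2 fell, where 15.9% and 14.8% of all tested genes did so. For 9 genes these counts lie near the shares of all tested genes. The sestrins, which restrain growth signalling through mTORC1, had log2 fold changes of opposite sign. Sesn1 was measured at 19.5, 23.6 and 20.6 CPM and then 15.9, 12.9 and 15.8 CPM in DMSO, and at 20.7, 21.3 and 20.1 CPM and then 16.1, 13.1 and 16.3 CPM in WM-2474. Each late library lay below each early one, and Sesn1 fell by 0.48 on the log2 scale in DMSO (SE 0.10, edgeR adjusted p = 0.000628) and fell by 0.47 in WM-2474 (SE 0.11, adjusted p = 0.00133).

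Sesn2 was measured at 98.3, 107 and 111 CPM and then 114, 111 and 116 CPM in DMSO, and at 101, 112 and 114 CPM and then 127, 120 and 122 CPM in WM-2474. The times of Sesn2 did not overlap in either treatment, by a narrow margin in DMSO. Its log2 fold change was 0.12 ± 0.06 in DMSO (edgeR adjusted p = 0.108) and 0.18 ± 0.06 in WM-2474 (adjusted p = 0.0173). The WM-2474 call was lost without 96 h replicate 1 of that group (adjusted p = 0.140), without its 240 h replicate 1 (adjusted p = 0.0568) and with library totals (adjusted p = 0.564), which also put the DMSO log2 fold change just below 0.

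Zmat3, an RNA-binding protein that acts in splicing, was measured at 196, 204 and 188 CPM and then 219, 215 and 216 CPM in DMSO, and at 193, 198 and 205 CPM and then 218, 213 and 222 CPM in WM-2474. The rise was small but without overlap, 0.14 ± 0.04 and 0.13 ± 0.04 on the log2 scale (edgeR adjusted p = 0.0145 and 0.0315), and with library totals it was 0.02 in DMSO and -0.01 in WM-2474. The DMSO call was lost without DMSO 96 h replicate 3 (adjusted p = 0.0909). The WM-2474 call was lost without WM-2474 96 h replicate 1 (adjusted p = 0.143), 96 h replicate 2 (adjusted p = 0.0810) or 240 h replicate 3 (adjusted p = 0.0939).

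Of the polo-like kinases, Plk3 fell by 0.32 on the log2 scale in WM-2474 (SE 0.10, edgeR adjusted p = 0.0213), from 25.9 ± 3.89 to 20.7 ± 2.56 CPM, although its libraries overlapped. That call was lost without WM-2474 96 h replicate 1 (adjusted p = 0.196), 240 h replicate 1 (adjusted p = 0.0948) or 240 h replicate 3 (adjusted p = 0.0818). Plk2 was at 177 ± 23.4 and 211 ± 9.61 CPM in DMSO (log2 fold change 0.25 ± 0.12, adjusted p = 0.125), and it passed without DMSO 96 h replicate 1 (adjusted p = 0.0196) or WM-2474 96 h replicate 1 (adjusted p = 0.0489). Whether each kinase passed thus depended on replicate 1 at 96 h, and for Plk3 also on WM-2474 240 h replicates 1 and 3. Of the exon bases of Plk3, 84 of 2531 overlap another gene on the other strand.

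The other 4 stress and growth genes did not pass in either treatment. Gdf15, a secreted stress hormone, was at 7.81 ± 1.65 and 7.10 ± 0.315 CPM in DMSO, and Ddit4l, another restraint on mTORC1, at 18.2 ± 2.99 and 19.7 ± 1.1 CPM. Dram1, a lysosomal protein of autophagy, was at 12.4 ± 0.781 and 13 ± 2.12 CPM. Cd82, a tetraspanin that limits cell movement, was at 22.5 ± 1.86 and 19.4 ± 1.18 CPM, with all late DMSO libraries below all early ones (log2 fold change -0.18 ± 0.10, edgeR adjusted p = 0.181).

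The 3 microtubule and mitosis genes went in different directions. Psrc1, a spindle protein, was measured at 74.0, 82.9 and 79.9 CPM and then 99.5, 96.6 and 109 CPM in DMSO, and at 74.9, 79.4 and 77.3 CPM and then 107, 108 and 95.9 CPM in WM-2474. Ckap2, a microtubule protein of mitotic cells, was measured at 59.2, 54.7 and 63.0 CPM and then 45.6, 45.5 and 46.9 CPM in DMSO, and at 60.1, 56.4 and 54.7 CPM and then 46.3, 48.4 and 46.5 CPM in WM-2474. The late libraries of Psrc1 were all higher and those of Ckap2 all lower. Psrc1 rose by 0.38 ± 0.06 and 0.43 ± 0.06 on the log2 scale (edgeR adjusted p = 2.09e-05 and 4.13e-06). Ckap2 fell by 0.36 in DMSO (SE 0.06, adjusted p = 7.60e-05) and fell by 0.28 in WM-2474 (SE 0.06, adjusted p = 0.00137).

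Gtse1, which binds microtubules and carries p53 out of the nucleus, was measured at 84.8, 89.5 and 94.6 CPM and then 90.2, 91.6 and 93.5 CPM in DMSO, and at 88.4, 87.1 and 93.1 CPM and then 86.1, 92.2 and 91.4 CPM in WM-2474. Its times overlapped and its log2 fold changes were 0.04 and 0.01.

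**Figure D3:**
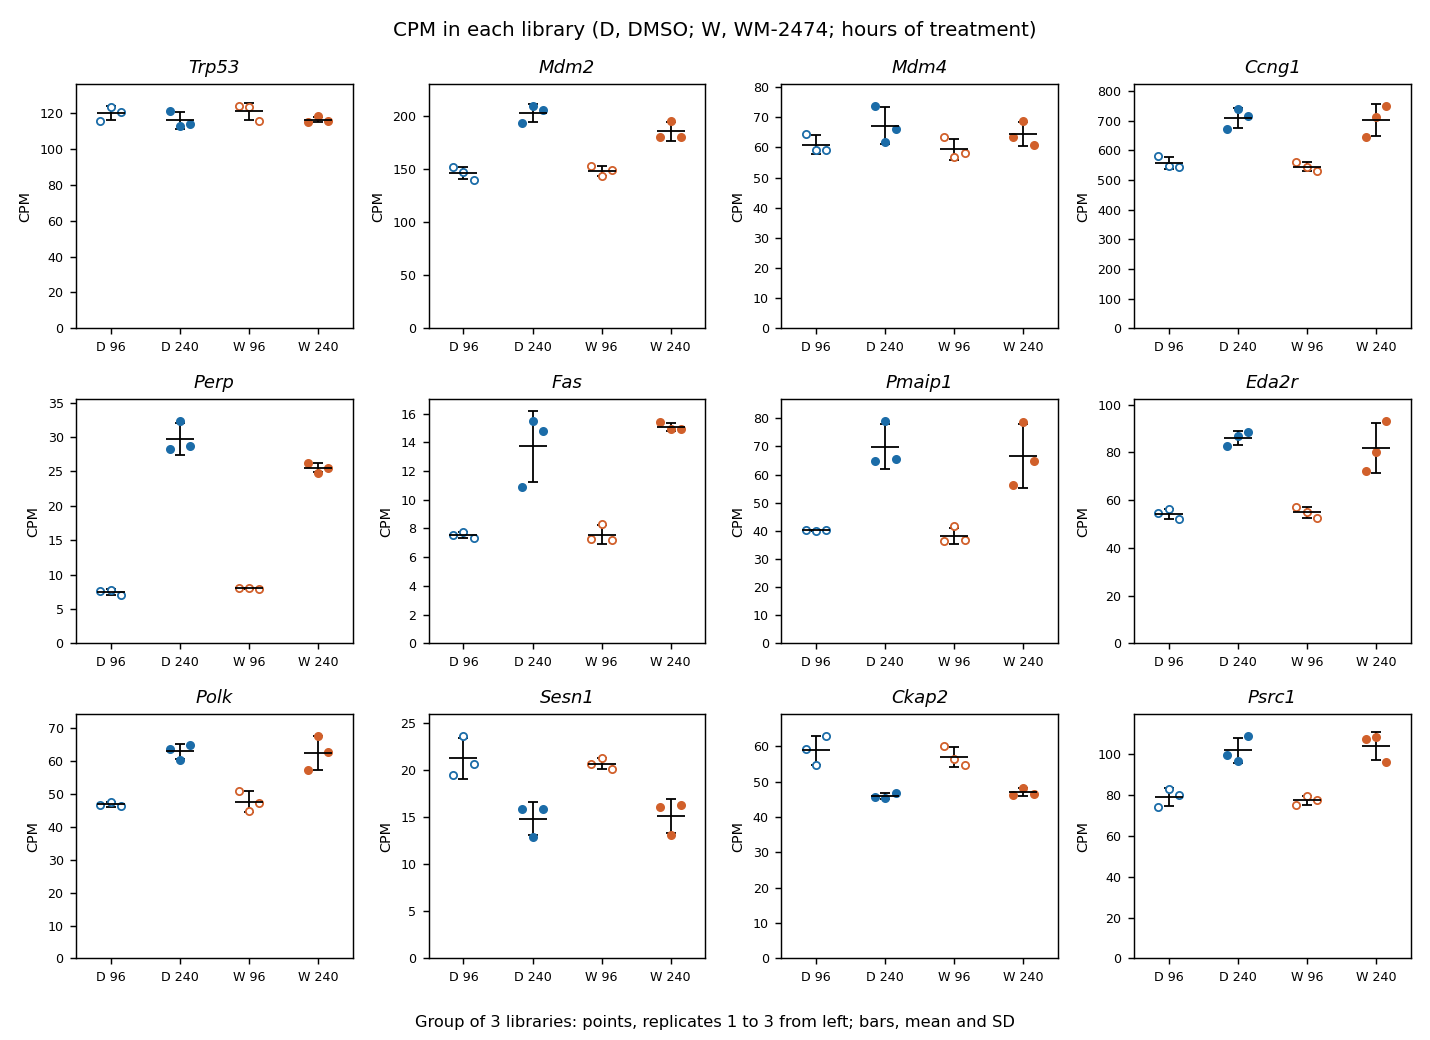
CPM in each library for 12 members, with points for replicates 1 to 3 and bars for the mean ± SD of each group (D, DMSO; W, WM-2474). Perp went from 7.48 to 29.7 CPM in DMSO with no overlap, Sesn1 and Ckap2 lay lower at 240 h, and Trp53 stayed between 113 and 124 CPM in all 12 libraries.

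The members moved beside a wider fall of cell division genes. All 20 genes of a proliferation list, covering mitosis and DNA replication, had log2 fold changes below 0 in both treatments. Their medians were -0.41 in DMSO and -0.52 in WM-2474. By the edgeR test 19 fell in DMSO, where 17.3% of all tested genes fell, and 20 in WM-2474, where 14.8% did. Their summed level was 1694 to 1811 CPM in DMSO at 96 h and 1315 to 1351 CPM at 240 h, and 1707 to 1788 CPM and then 1146 to 1303 CPM in WM-2474. Ckap2 fell alongside this list, while Psrc1 rose and Gtse1 did not pass. The part of proliferation in the members' changes was not tested, and in bulk RNA fewer cells of a type and less RNA per cell cannot be told apart.

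The other listed targets of p53 numbered 30, all tested, of which 11 rose and 3 fell in DMSO, where 17.5% and 17.3% of all tested genes did so. In WM-2474 12 rose and 3 fell, where 15.9% and 14.8% of all tested genes did so. Cdkn1a, the p21 inhibitor of cyclin-dependent kinases and the best-known arrest target, was measured at 373, 396 and 386 CPM and then 606, 625 and 600 CPM in DMSO, and at 378, 403 and 374 CPM and then 682, 642 and 640 CPM in WM-2474. It rose in every late library, by 0.66 ± 0.04 and 0.77 ± 0.04 on the log2 scale (edgeR adjusted p = 7.59e-12 and 5.45e-13). Thbs1, an extracellular matrix protein that inhibits vessel growth, rose by 0.82 ± 0.05 and 0.81 ± 0.05, and Ephx1, an epoxide hydrolase, rose by 0.50 ± 0.04 and 0.43 ± 0.04. Steap3, an iron reductase, fell by 0.84 in DMSO and 0.88 in WM-2474, and Pcna, the sliding clamp of DNA replication, fell by 0.23 and 0.30. Prkab1, a subunit of the energy sensor AMPK, fell by 0.20 and 0.29, and its DMSO call was lost without DMSO 96 h replicate 2 or 3 or 240 h replicate 1 or 3 (adjusted p = 0.0638 to 0.164). With library totals this list counted 8 higher and 7 lower in DMSO and 8 and 6 in WM-2474, where 32.5% of all tested genes were lower in each treatment.

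Of 24 listed regulators of p53, 22 were tested; its relatives Trp63 and Trp73 did not pass the filter on low counts. In DMSO 4 rose and 3 fell, near the shares of all tested genes (17.5% and 17.3%), and in WM-2474 4 rose and 1 fell (15.9% and 14.8% of all tested genes). Cdkn2a, the locus of the Mdm2 inhibitor p19Arf and of p16Ink4a, which gene counts do not separate, went from 109 ± 16.5 to 170 ± 3.40 CPM in DMSO and from 103 ± 10.3 to 186 ± 12.2 CPM in WM-2474. It rose by 0.65 ± 0.10 and 0.85 ± 0.10 on the log2 scale (edgeR adjusted p = 0.000324 and 3.84e-05). Ppp1r13l, known as iASPP, an inhibitor of p53, rose by 0.46 ± 0.09 and 0.60 ± 0.09, and Setd7, a methyltransferase with p53 among its substrates, rose by 0.29 ± 0.06 and 0.22 ± 0.06. In DMSO the deacetylase Sirt1 fell by 0.35, the acetyltransferase Kat5 by 0.28 and the ribosomal protein gene Rpl11 by 0.27, whose counts are uncertain since ribosomal protein genes have near-identical copies. In WM-2474 Kat5 fell by 0.29, while Sirt1 (log2 fold change -0.25, adjusted p = 0.0516) and Rpl11 (0.09, or -0.04 with library totals) did not pass. The call of Rpl11 was lost without DMSO 96 h replicate 3 or 240 h replicate 1 or 3 (adjusted p = 0.0653 to 0.0790), and that of Kat5 in WM-2474 without 240 h replicate 2 of that group (adjusted p = 0.0511). Sirt1 passed in WM-2474 without that same library (adjusted p = 0.0254) or without DMSO 96 h replicate 1 or 2 (adjusted p = 0.0405 and 0.0401), and Setd7 did not pass there with library totals (adjusted p = 0.250). Without DMSO 240 h replicates 1 and 2 none of the 3 falls in DMSO passed (adjusted p = 0.0661, 0.0961 and 0.0608), and with library totals the list counted 3 higher and 7 lower in DMSO and 3 and 9 in WM-2474, where 32.5% of all tested genes were lower in each treatment.

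The libraries with the B-lineage signal entered the DMSO time change. With both left out, 12 members rose and 2 fell in DMSO, where 10.6% of all tested genes rose and 9.79% fell. Phlda3 (edgeR adjusted p = 0.0543) and Zmat3 (adjusted p = 0.145) lost their calls, in a fit that leaves 1 library in that group and assumes that it varies like the others. Of the other targets 9 then rose and 2 fell, with Prkab1 losing its call (adjusted p = 0.0908), and of the proliferation list 18 fell. The part of that signal in the members' values was not tested.

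WM-2474 was compared with DMSO at each time, on average over both, and as the difference between the 2 time changes. None of the 33 members passed at 96 h, where 0% of all tested genes were higher and 0% lower. None passed at 240 h, where 0.0296% of all tested genes were higher and 0% lower, nor on average (0.0148% and 0%) or for the difference between time changes (0% and 0%). DESeq2 and limma-voom also called 0 members in these comparisons, as did edgeR without DMSO 240 h replicates 1 and 2. Without adjustment the edgeR test gave 0 members under a p of 0.05 at 96 h, where 1.07% of tested genes were higher and 1.02% lower. It gave 3 at 240 h, where 4.77% were higher and 3.37% lower, 1 on average (3.17% and 2.48%) and 3 for the difference (2.70% and 1.93%). The 95% interval of every member lay within a 1.5-fold change in either direction at 96 h, at 240 h and on average. For the difference between time changes the intervals of 30 members did, and those of Perp, Bbc3 and Gdf15 reached further.

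At 96 h the smallest p-values belonged to Rrm2b (log2 fold change -0.20 ± 0.12), Trp53inp1 (0.08 ± 0.05) and Apaf1 (0.08 ± 0.05), each with edgeR adjusted p = 1.00. Perp was the member whose WM-2474 libraries, at 7.94 to 8.11 CPM, all lay above the DMSO libraries, at 7.03 to 7.73 CPM, as they did for 3.62% of tested genes; no member lay below without overlap, as 3.83% of tested genes did. The difference of Perp was 0.10 ± 0.11 on the log2 scale.

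At 240 h the 3 members with the smallest p-values were Mdm2, Perp and Phlda3. Mdm2 was at 180, 195 and 180 CPM in WM-2474 against 193, 209 and 205 CPM in DMSO, with 1 WM-2474 library inside the DMSO range and a log2 fold change of -0.13 ± 0.05 (edgeR adjusted p = 0.521). Perp was lower in all WM-2474 libraries, at 24.8 to 26.1 CPM against 28.2 to 32.3 CPM, by -0.21 ± 0.08 (edgeR adjusted p = 0.521). Phlda3 was higher in all WM-2474 libraries, at 316 to 319 CPM against 285 to 295 CPM, by 0.14 ± 0.06 (edgeR adjusted p = 0.571). These 3 had differences of both signs, and after adjustment over all genes none of them passed.

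Counting libraries alone, Phlda3, Sesn2 and Ei24 were higher without overlap at 240 h and Perp lower, 3 and 1 of 33, where 7.58% and 6.72% of tested genes were so. The log2 fold changes of Sesn2 and Ei24 were 0.11 ± 0.06 and 0.05 ± 0.05. Averaged over both times, the smallest p-values belonged to Trp53inp1 (0.08 ± 0.03, edgeR adjusted p = 0.849), Sesn2 (0.08 ± 0.04) and Rrm2b (-0.17 ± 0.09).

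The difference between time changes asks whether a member rose more in WM-2474 than in DMSO. Phlda3 rose by 0.21 ± 0.08 more on the log2 scale, and the change of Perp was lower by -0.31 ± 0.14 and that of Mdm2 by -0.15 ± 0.07. All 3 had an edgeR adjusted p = 0.977, so no member was shown to respond to time differently under the compound.

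**Figure D4:**
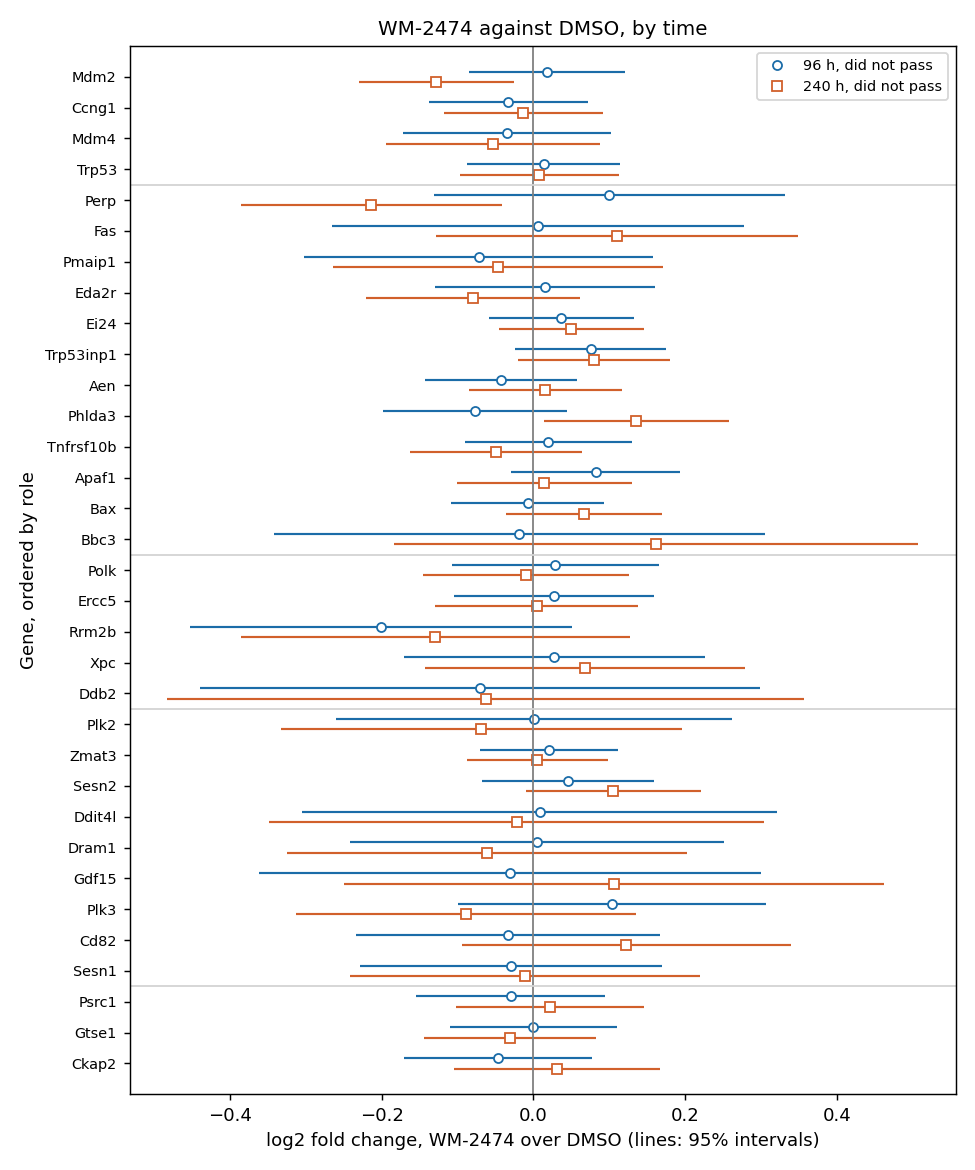
Log2 fold change of WM-2474 over DMSO for each member at 96 h (circles) and at 240 h (squares), with lines for 95% intervals. All symbols are open because none passed the edgeR test, and the values lie between -0.21 (Perp at 240 h) and 0.16.

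The spread among replicates was small for most members: the coefficient of variation within a group ran from 0.500% to 24.6%, with a median of 4.97%. At 96 h part of the spread followed the replicate number. Plk2 was at 203 CPM in replicate 1 of both treatments and at 158 to 169 CPM in the other 4 libraries. Ddit4l was at 14.9 CPM or less in replicate 1 of both and at 19.3 to 21.2 CPM in the others. Gdf15 was at 9.69 and 9.73 CPM in replicate 3 of both and at 5.98 to 7.39 CPM in the others. These genes were picked after their values were seen. Replicate 1 was the highest or the lowest in both treatments for 15 of 33 members, and for 37.2% of all tested genes.

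**Figure D5:**
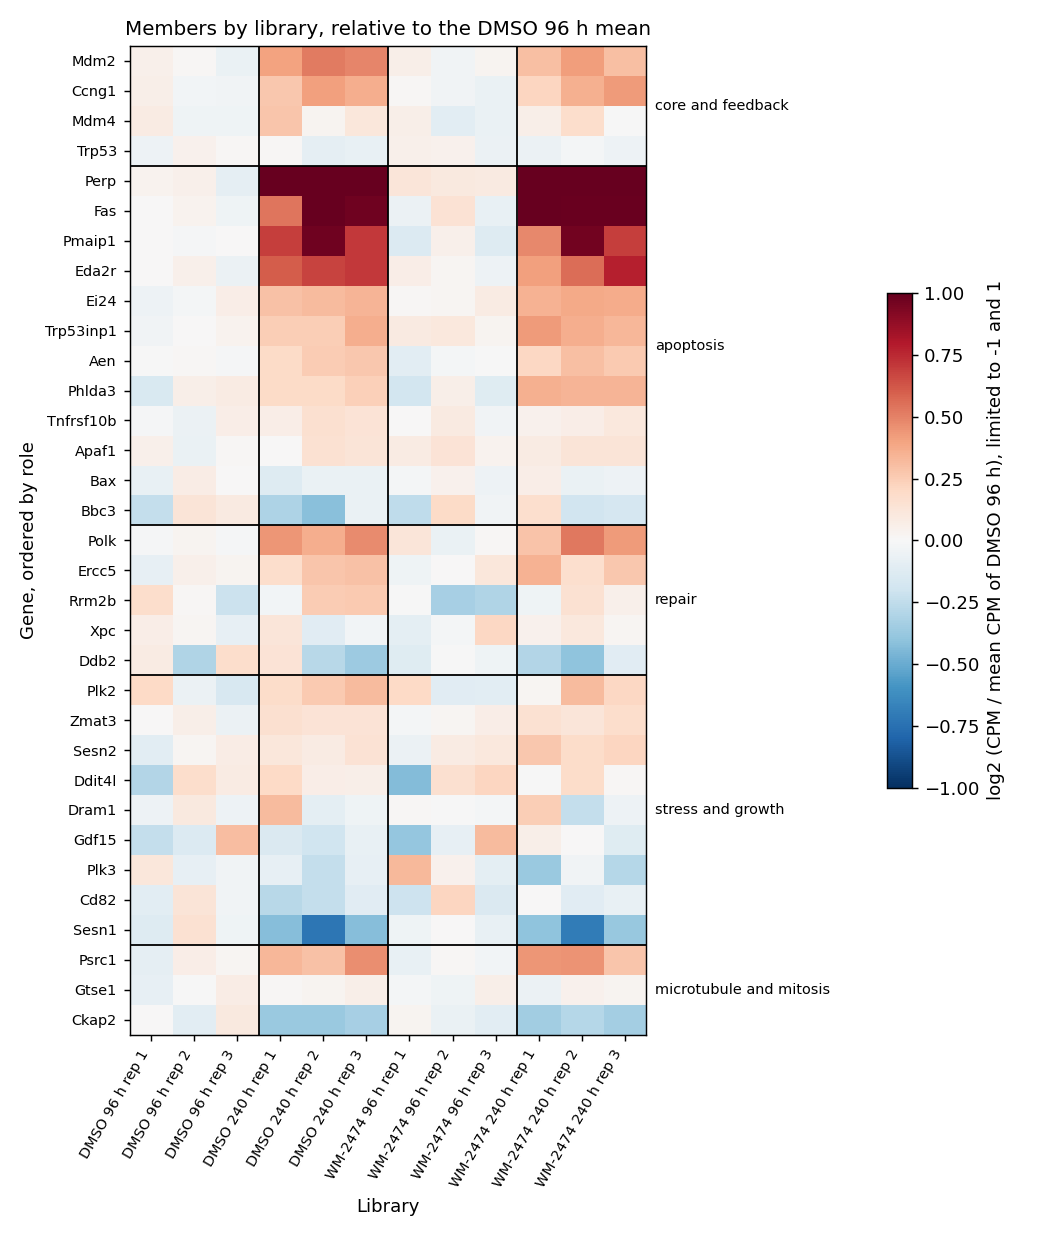
Log2 ratio of each member's CPM to its mean in DMSO at 96 h, by library, with genes ordered by role and colours limited to -1 and 1. The 240 h columns are redder for most apoptosis genes, with Perp at the limit, bluer for Sesn1 and Ckap2, and alike in the 2 treatments.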

How the data were processed

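The authors deposited raw counts per gene with exon lengths; per the submitters' processing notes they used featureCounts on mm10. Aligner, annotation and strand setting: not given in the sources used here. Overlapping genes and near-identical copies are therefore uncertain. Of 27179 entries, 874 without a gene identifier (0.547 to 0.648% of counts) were left out. Replicates were not duplicates (chi-square per degree of freedom 2.02 to 4.99).

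A model with a mean for each of the 4 groups was fitted to the 12 libraries in edgeR 4.0.16 (filterByExpr, 13499 genes, TMM, robust quasi-likelihood; threshold 0.05 on two-sided Benjamini-Hochberg adjusted p over all tested genes), a procedure tested on simulated data. An exact permutation of 3 against 3 libraries cannot go below p = 0.1. FPKM used the deposited lengths. Alternatives included DESeq2 1.42.0 and limma-voom (limma 3.58.1). The 95% intervals came from the quasi-likelihood fit and include the estimated spread between replicate libraries. Replicate numbers paired the samples between treatments at 96 h, where same-numbered libraries deviated together (correlations across genes 0.300, 0.234 and 0.191). At 240 h these correlations were weaker (0.0972, 0.114 and 0.0397). Between times they were 0.0559, 0.0949 and 0.132 in DMSO, and -0.0083, 0.0801 and 0.0664 in WM-2474. Every different-numbered pair between times in DMSO was negative. Deviations were taken from each group's mean, so positive same-numbered pairs push the others below 0, and those negative values are no separate sign of pairing. The main fit did not use the replicate numbers.

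The members, gene lists and rules were chosen with earlier results of these data known. All members are named; library values are given for the core genes and, per role, the 3 with the smallest p over time in DMSO; the 3 smallest p-values are named per treatment comparison, and up to 3 per direction in the pathway lists.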

Additional observations from a re-analysis of the deposited data

How the results depend on the processing

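The counts of members higher and lower over time kept within 1.5 times of the reported ones under RLE size factors, no filter, DESeq2, limma-voom and fits of only the groups compared. Exceptions were library totals (5 lower instead of 2 in DMSO and 5 instead of 3 in WM-2474) and the test against a fold of 1.2 (6 higher and 1 lower in DMSO, 6 and 0 in WM-2474). Leaving out each library in turn gave 13 to 15 higher and 2 lower in DMSO, and 13 to 15 higher and 2 to 3 lower in WM-2474. In the same fits 13.7 to 18.0% of all tested genes were higher and 12.7 to 17.5% lower in DMSO. In WM-2474 these shares were 12.8 to 16.1% and 10.9 to 15.3%. With the replicate number as a block 14 rose and 2 fell in DMSO, where 18.2% of all tested genes rose and 18.1% fell. In WM-2474 15 rose and 3 fell with the block, where 16.5% and 15.5% of all tested genes did so. At 96 h the numbers paired the samples. There the block with only the 96 h libraries, chosen after seeing the data, called 3 of 13377 genes and 0 members. No member was called in a treatment comparison under any of these alternatives.

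Members near 0 changed sign with library totals, which lower every time change: in DMSO Tnfrsf10b (-0.0016), Apaf1 (-0.0233), Sesn2 (-0.0055), Ddit4l (-0.0093), Dram1 (-0.0728) and Gtse1 (-0.0842), and in WM-2474 Mdm4 (-0.0180), Tnfrsf10b (-0.0823), Apaf1 (-0.10), Xpc (-0.10), Zmat3 (-0.0065), Ddit4l (-0.0511), Gdf15 (-0.11), Gtse1 (-0.13) and the regulator Rpl11 (-0.0398). Dram1 was at -0.0320 in DMSO without replicates 1 and 2 of 240 h, and Gdf15 at -0.0192 in WM-2474 with limma-voom; the cause was not tested. Leaving out 1 library, log2 fold changes in DMSO ran from -0.0558 to 0.0250 for Xpc, -0.0302 to 0.20 for Ddit4l, -0.0033 to 0.0762 for Gtse1, -0.24 to 0.0693 for Gdf15 and -0.0536 to 0.13 for Dram1. In WM-2474 they ran from -0.0418 to 0.12 for Xpc, -0.12 to 0.19 for Ddit4l, -0.15 to 0.22 for Gdf15, -0.0134 to 0.0372 for Gtse1, -0.15 to 0.0878 for Bbc3, -0.0503 to 0.0181 for Bax, -0.11 to 0.11 for Cd82 and -0.15 to 0.11 for Dram1. Depth limited Ddb2, Gdf15, Fas and Perp at 96 h most, all under 10 CPM.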
